A study of Mus musculus with 6 samples.

Results

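The ventral prostate (VP) of a wild-type mouse was compared with the other lobes of the same gland, the anterior prostate (AP) and the dorsolateral prostate (DLP). A gene was kept where its FPKM (fragments per kilobase of transcript and 1e+06 mapped reads) averaged 1 or more over the 3 WT libraries, which left 12018 of the 24908 genes measured. The value given to each gene is a log2 ratio, log2 of VP FPKM + 1 over the mean FPKM of AP and DLP + 1, so that 1 is 2-fold higher and -1 is 2-fold lower in the ventral lobe. At the edge of the filter, Acat3 with a mean of 1.001 FPKM was kept and Tigar with a mean of 0.9997 FPKM was not. At the edge of the 2-fold threshold, Prss23 (14.9 FPKM in VP, 33.8 in DLP, 27.9 in AP) was inside on the lower side and Frmd4a (2.76, 7.39 and 5.64) was outside.

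Bulk RNA-seq of polyA RNA was available for 6 libraries, 1 from each lobe of a WT male and 1 from each lobe of a MYC littermate. Both were FVB mice of 12 weeks on a purified diet. The MYC mouse was heterozygous for a human c-MYC transgene under the ARR2Pb promoter, which is active in prostate epithelium, and the WT mouse carried no transgene. The lobes were dissociated with enzymes to single cells, and RNA was taken from part of each suspension, so each library holds epithelium together with whatever stroma, vessel and blood cells survived the digest. All 3 WT libraries came from 1 animal, and AP and DLP are different lobes rather than replicates, so no difference below has a replicate check and no p-value is given. Estimated from the steps between low FPKM values, depth was 4.96e+07 mapped reads for WT VP, 4.70e+07 for WT DLP and 2.55e+07 for WT AP. Between 17213 and 17797 genes were above 0 in the WT libraries. An exact 0 in this table can be a failed estimate, so a 0 is given below only as listed and no fold is given against it.

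The mouse prostate is a set of paired lobes whose luminal cells secrete different fluids under androgen control. A secretory luminal cell makes its product in the endoplasmic reticulum, folds and glycosylates it, and sends it through the Golgi and storage vesicles to the lumen, while channels and transporters set the ions, metals and citrate of the fluid. The ventral lobe is known for a thin, serous secretion, and the anterior lobe, also called the coagulating gland, for the enzyme that clots seminal fluid.

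The promoters of 3 genes of the endoplasmic reticulum and amino acid stress response that were high in the ventral lobe are shown, because they share the letters TGATGCAA, the core of the element bound by C/EBP and ATF family factors. Each is the run of 250 bases before the gene's start on the gene's own strand, from RefSeq on GRCm38.p6, and the capitals mark the match, which reads TTGCATCA here because it lies on the opposite strand. Nupr1 encodes a small stress-induced chromatin protein (chr7:126625471-126625720, minus strand), Herpud1 a component of the machinery that removes misfolded proteins from the endoplasmic reticulum (chr8:94386179-94386428, plus strand), and Atf3 a stress-induced transcription factor (chr1:191183334-191183583, minus strand).
Nupr1: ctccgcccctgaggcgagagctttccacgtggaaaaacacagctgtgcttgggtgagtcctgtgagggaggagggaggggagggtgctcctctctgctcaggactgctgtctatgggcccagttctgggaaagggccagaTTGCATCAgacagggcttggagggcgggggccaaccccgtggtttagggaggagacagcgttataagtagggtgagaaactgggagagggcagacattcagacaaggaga
Herpud1: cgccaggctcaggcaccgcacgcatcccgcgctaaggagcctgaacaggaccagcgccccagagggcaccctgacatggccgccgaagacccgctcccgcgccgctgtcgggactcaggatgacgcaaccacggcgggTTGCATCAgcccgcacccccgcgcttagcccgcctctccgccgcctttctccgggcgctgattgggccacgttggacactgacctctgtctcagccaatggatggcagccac
Atf3: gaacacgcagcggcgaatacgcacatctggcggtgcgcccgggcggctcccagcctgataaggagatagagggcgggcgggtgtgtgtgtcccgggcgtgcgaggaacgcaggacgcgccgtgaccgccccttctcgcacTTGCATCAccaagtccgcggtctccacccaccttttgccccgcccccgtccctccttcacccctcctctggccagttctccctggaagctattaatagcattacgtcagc
The match begins 110 bases before the start in Nupr1 and Atf3 and 112 bases before it in Herpud1. Searched on both strands, TGATGCAA occurred in 8 of the 361 promoters found for genes at least 2-fold higher in VP than the mean of the other lobes (2.22%) and in 7 of 714 promoters of genes 2-fold lower by the same measure (0.980%). It occurred in 51 of the 9315 promoters of all genes compared (0.548%) and in 221 of all 27025 promoters of that length (0.818%). For genes at least 2-fold higher than in each other lobe it was 6 of 209 (2.87%). The looser TGATGNAA, which takes in the first motif, occurred in 14 of the 361 (3.88%) and 16 of the 714 (2.24%). It occurred in 1.96% of the promoters of genes compared and 3.53% of all promoters. The share in higher genes was then above that of genes compared and near that of all promoters. A match in these letters is a description of the sequence and not a binding site, and these 3 genes were picked after their values were seen.

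Of the 12018 genes, 491 (4.09%) were at least 2-fold higher in the ventral lobe and 1045 (8.70%) at least 2-fold lower. The median log2 ratio was -0.08. Scaling the libraries by the median of ratios moved that median to 0.07 and the counts to 691 higher and 808 lower, so the share of calls that were higher went from 32.0% to 46.1%. Against each of the other lobes separately, 294 genes (2.45%) were at least 2-fold higher in VP and 579 (4.82%) at least 2-fold lower. Among the 294, DLP lay between VP and AP for 239 (81.3%), where DLP exceeded AP for 62.2% of all genes compared. Among the 579, AP was the highest lobe for 434 (75.0%), where AP exceeded DLP for 37.7% of all genes. For most genes on both sides, then, the lobe nearest to VP was DLP and the farthest was AP.

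The gene that set the ventral lobe apart most was Spink1, a secreted inhibitor of trypsin. It stood at 25232 FPKM in VP, at 0.197 FPKM in DLP and was listed at 0 in AP, and it took 6.15% of all FPKM in the ventral library, the most of any gene. No transcript length was matched to Spink1. At the median length of the genes compared, the DLP value would be about 16 reads, so its true read number is uncertain. Spink5, which encodes a multi-domain inhibitor of kallikrein proteases, stood at 1104 FPKM in VP against 0.367 in DLP and 0.763 in AP, a log2 ratio of 9.46. In both genes the VP value was far outside the range of the other lobes.

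**Figure D1:**
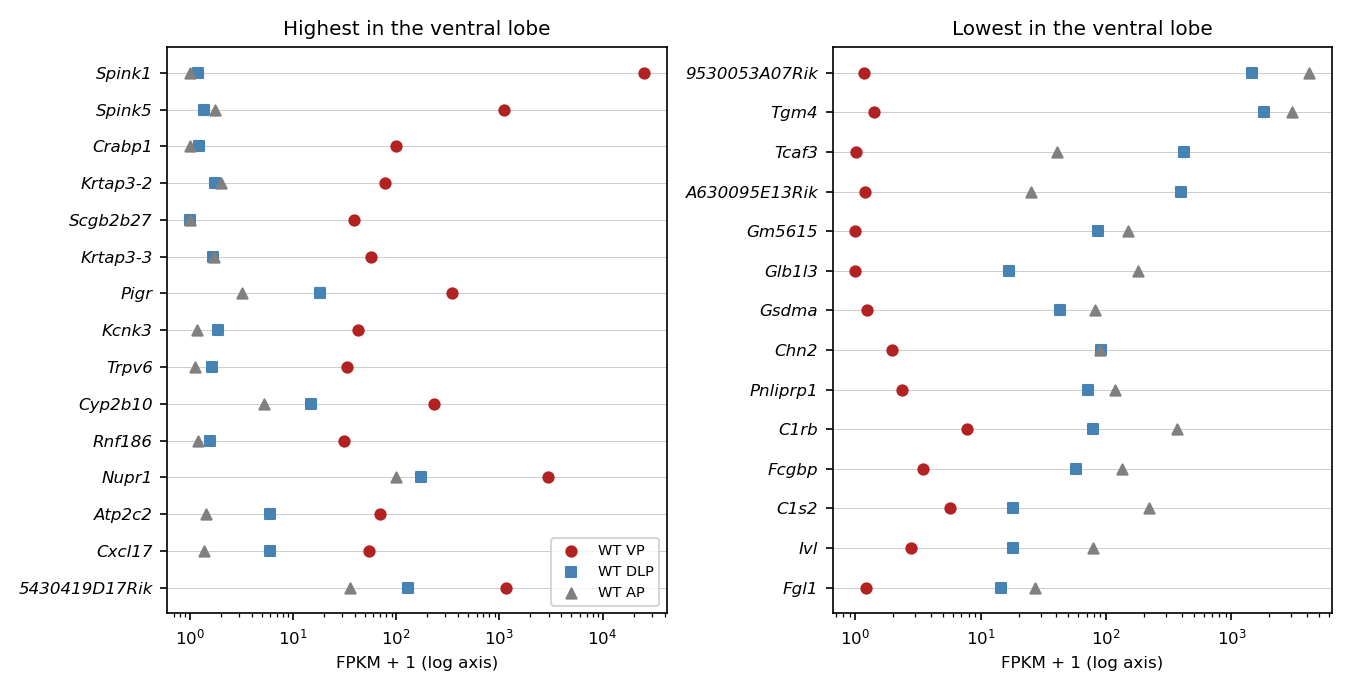
FPKM + 1 on a log axis in the WT VP (circles), WT DLP (squares) and WT AP (triangles) libraries for the 15 genes highest and 14 of the 15 lowest in VP of those that averaged 10 FPKM or more and passed 2-fold against both other lobes; each point is 1 library. The genes on the left lie at 30.0 FPKM or more in VP and at 173 or less elsewhere, and those on the right at 6.70 or less in VP.

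Pigr, Cxcl17 and Scgb2b27 were also among the 15 highest genes. Pigr, the receptor that carries IgA across epithelium, stood at 349 FPKM in VP, 17.2 in DLP and 2.17 in AP (log2 ratio 5.03). Cxcl17, a mucosal chemokine, stood at 53.1, 5.01 and 0.353 FPKM in the same order. Scgb2b27, a secretoglobin of the androgen-binding protein family, stood at 38.01 FPKM in VP and was listed at 0 in both other lobes. Scgb2b7 (5.91, 0.137 and 0 FPKM in VP, DLP and AP) and Scgb2b17 (4.55, 0.874 and 0.0896) were named after their values were seen. Of 29 secretoglobin genes measured, only these 3 passed the filter on low values, each through its VP level, so their direction was fixed by the filter. These genes lie together on chromosome 7 and are similar in sequence, so reads may have been divided among copies.

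The other genes of the 15 highest had varied roles. Crabp1, which binds retinoic acid in the cytoplasm, stood at 97.7 FPKM in VP, 0.213 in DLP and 0 as listed in AP. Krtap3-2 stood at 76.4, 0.753 and 1.01 FPKM and Krtap3-3 at 55.3, 0.658 and 0.695, although keratin-associated proteins are known from the hair shaft. Of 54 Krtap genes measured, 4 passed the filter, each through its VP level, so their direction too was fixed by the filter. These 4, Krtap3-1, Krtap3-2, Krtap3-3 and Krtap17-1, are successive compared genes at chr11:99550132-99993994 of GRCm38.p6. Cyp2b10, a xenobiotic-metabolising cytochrome P450, stood at 231, 13.7 and 4.21 FPKM, and the potassium channel gene Kcnk3 at 41.1, 0.858 and 0.174. Rnf186, a ubiquitin ligase gene, stood at 30.0, 0.545 and 0.187 FPKM, and 5430419D17Rik at 1145, 130 and 35.0. Nupr1 was the most abundant of them after Spink1, with 2985 FPKM in VP, 173 in DLP and 98.0 in AP, and its 95% counting interval for VP over DLP was 16.9 to 17.7. Of the 15, those with a matched transcript length had at least 1459 estimated reads in VP. Spink1 and Scgb2b27 had no matched length, so their read numbers are uncertain. The Nupr1 interval and others of its kind cover counting error only, since reads are not independent molecules and no lobe was repeated.

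The 15 genes lowest in the ventral lobe were led by products of the anterior and dorsolateral lobes. Tgm4, the prostate transglutaminase that forms the copulatory plug, stood at 0.400 FPKM in VP, 1804 in DLP and 3016 in AP (log2 ratio -10.75). 9530053A07Rik stood at 0.178, 1456 and 4177 FPKM (log2 ratio -11.22). The VP level of Tgm4 was 0.013% of that in AP, and the DLP level of Spink1 was 0.00078% of that in VP, values given as a description, since these genes were picked by the same ratio. Tcaf3, of a family that regulates the cold-sensing channel TRPM8, stood at 0.00693, 414 and 39.3 FPKM, and A630095E13Rik at 0.195, 392.2 and 24, both with DLP as the highest lobe. Glb1l3 (0, 15.8 and 177 FPKM) and Gm5615 (0, 85.7 and 150) were listed at 0 in VP. Gsdma (gasdermin A), the Rac regulator Chn2, the lipase relative Pnliprp1, the complement protease copies C1rb and C1s2, the mucin-like Fcgbp, the cornified envelope protein Ivl and Fgl1 had log2 ratios from -5.64 to -4.10.

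The list of secreted prostate proteins also holds some prostate genes whose product is not secreted, such as the channel gene Trpv6, the tight junction gene Cldn10 and the gasdermin gene Gsdma. Of its 44 members compared, 13 were higher in the ventral lobe by 2-fold or more and 18 lower, which is 29.5% and 40.9% beside 4.09% and 8.70% of all genes. The summed level of the list was 52496 FPKM in VP, 48572 in DLP and 10518 in AP, with 25232 FPKM of the VP sum from Spink1 alone, and the list's median log2 ratio was -0.27. The VP sum also takes the near copies Sbp and Sbpl at a listed 0 that cannot be read as a level, so the true VP level of the group is unknown by an amount that could be large. Beside Spink1, Spink5, Pigr and Cxcl17, the higher members included the prostate transcript 9530002B09Rik (6649, 1249 and 349 FPKM in VP, DLP and AP), the metalloprotease inhibitor Timp4 (48.0, 4.83 and 0.414), Fam3b (9.83, 0.719 and 0.307) and Azgp1 (82.8, 44.9 and 4.63). Azgp1 encodes zinc-alpha-2-glycoprotein and passed 2-fold against the mean of both lobes but not against DLP alone. The lower members included the metalloprotease Mmp7 (14.1, 414 and 62.1 FPKM), the ribonuclease Rnase1 (26.0, 471 and 194) and the protease inhibitor Cst3 (296, 821 and 639).

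Products often used to mark prostate secretion did not separate VP from both other lobes. Pbsn (probasin), an androgen-dependent lipocalin, stood at 2055 FPKM in VP, 14037 in DLP and 3597 in AP. Msmb (beta-microseminoprotein) stood at 2664, 8601 and 16.4 FPKM, which was above AP and below DLP. Defb50, a beta-defensin, stood at 11123, 18600 and 361 FPKM, and Defb1 at 572, 1500 and 105, both in the same order. VP thus held the middle or the lowest of the 3 levels for each of them. B2m, the light chain of MHC class I, stood at 2880, 4736 and 2521 FPKM, and the nuclear long non-coding RNA Malat1 at 257, 168 and 142, neither past 2-fold. Sbp, the gene of spermine binding protein, was listed at 0 in VP, at 3.58 FPKM in DLP and at 0.680 in AP, and its near copy Sbpl, which was below the filter, was listed at 0, 0.981 and 0.234. In the MYC ventral library Sbpl was the highest gene of all, at 20155 FPKM, and Sbp was listed at 0. The division of reads between these copies is uncertain, and the WT VP level of neither can be read from this table.

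The machinery that makes and moves secreted proteins differed less than the products. Among 28 translocon and signal peptide processing genes, 25 had a log2 ratio above 0, beside 43.4% of all genes, and the median was 0.31. By 2-fold or more, 3 (10.7%) were higher and none was lower, beside 4.09% and 8.70% of all genes. The higher genes were the signal peptidase subunit gene Sec11c (186, 98.6 and 40.9 FPKM in VP, DLP and AP), the translocon-associated Tram1 (108, 69.1 and 30.7) and the signal recognition particle gene Srp68 (73.4, 39.1 and 33.0). All 3 were highest in VP, and none passed 2-fold against DLP alone.

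Of 45 chaperones and disulfide isomerases of the endoplasmic reticulum, 4 (8.89%, beside 4.09% of all genes) were at least 2-fold higher, none was 2-fold lower (beside 8.70%), and the median log2 ratio was 0.22. Herpud1, whose promoter is shown above, led them with 712 FPKM in VP, 248.8 in DLP and 182 in AP. Edem3, which trims mannose from misfolded glycoproteins, stood at 25.1, 9.48 and 7.31 FPKM, and Ero1lb, an oxidase that drives disulfide formation, at 12.4, 4.46 and 3.34. P4hb, a disulfide isomerase gene, stood at 533, 350 and 178 FPKM. The first 3 passed 2-fold against each lobe, and P4hb did so against AP only.

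Of 69 genes of vesicle transport and exocytosis, 7 (10.1%) were at least 2-fold higher and 1 (1.45%) was 2-fold lower, beside 4.09% and 8.70% of all genes, and the median log2 ratio was 0.37. Under median-of-ratios scaling 12 were higher and none was lower, where 691 and 808 of all 12018 genes were. The list's median was then 0.56, beside 0.07 for all genes. The gene lower as deposited was Furin, a convertase gene (21.0, 40.0 and 49.5 FPKM). The higher genes contained 3 small GTPases of secretory granules: Rab26 (3.15 FPKM in VP, 0.259 in DLP and 0.159 in AP), Rab3d (53.1, 24.2 and 9.67) and Rab27b (16.9, 7.63 and 3.796). Copz2, a subunit of the COPI coat that carries cargo within the Golgi, stood at 286, 92.3 and 49.9 FPKM. Rab26 rests on few reads, with about 140 in VP and 11 in DLP, and its 95% counting interval for VP over DLP was 6.54 to 24.7. All 4 were in the order VP, DLP, AP.

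Of 46 glycosylation genes, 23 had a log2 ratio above 0 and 23 below, and 36 lay within 2-fold. By 2-fold or more, 1 was higher and 9 (19.6%, beside 8.70% of all genes) were lower, and the median log2 ratio was -0.03 as deposited and 0.13 under median-of-ratios scaling. Those lower included the sialyltransferases St6galnac2 (1.49 FPKM in VP, 9.67 in DLP and 9.98 in AP) and St3gal4 (3.08, 13.1 and 12.3), the N-acetylglucosaminyltransferase gene B3gnt7 (1.16, 3.67 and 9.95) and the mannosidase gene Man1a (23.6, 83.6 and 60.3). In each of these 4, VP was below both other lobes by over 2-fold. The 1 gene that was higher, Alg5, which makes the glucose donor for N-glycan assembly, stood at 31.6, 17.7 and 10.2 FPKM.

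**Figure D2:**
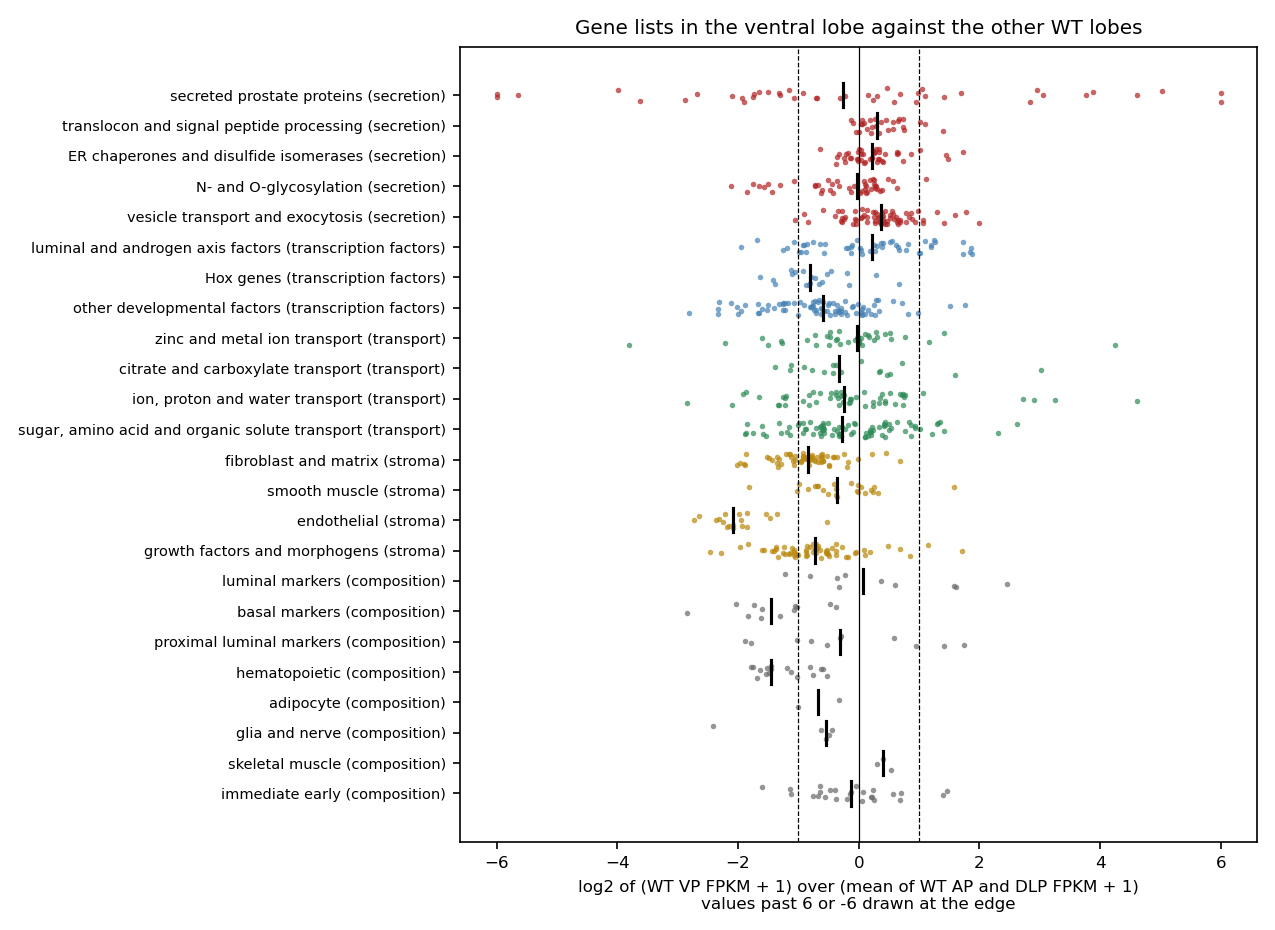
Log2 ratio of WT VP over the mean of WT AP and WT DLP (horizontal axis) for each compared member of the gene lists, 1 point per gene, with the list's median as a black bar and dashed lines at 2-fold; the vertical scatter within a row has no meaning, and values past 6 or -6 are drawn at the edge. Medians run from -2.08 for endothelial genes to 0.40 for the 3 skeletal muscle genes, and secreted prostate proteins spread the widest.

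Of 50 transcription factors of the luminal and androgen axis list, 11 (22.0%, beside 4.09% of all genes) were at least 2-fold higher and 5 (10%, near the 8.70% of all genes) lower by as much, and the median log2 ratio was 0.22. Bhlha15, the factor known as MIST1 that sets up secretory granules in serous cells, stood at 55.0 FPKM in VP, 19.1 in DLP and 9.73 in AP. Ddit3 (CHOP), a factor of the endoplasmic reticulum stress response, stood at 238, 61.9 and 68.5 FPKM, and Creb3l1, a membrane-bound factor of the same kind, at 33.9, 9.05 and 10.1. The retinoid receptor gene Rxrg (3.56, 0.245 and 0.239 FPKM) and the epithelial factor Tfcp2l1 (11.1, 3.28 and 2.01) were also above 2-fold against each lobe. Ovol1, a repressor of the epithelial-to-mesenchymal switch, stood at 9.41, 20.5 and 44.1 FPKM. VP was highest for all but Ovol1, with DLP and AP near each other for Ddit3, Creb3l1 and Rxrg.

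Not every gene of the stress response was high in VP. Atf4, the factor that induces Ddit3, stood at 652 FPKM in VP, 507 in DLP and 587 in AP, and its targets Chac1 (24.2, 23.2 and 28.7), Trib3 (5.48, 8.58 and 11.0) and Asns (30.8, 31.5 and 53.8) did not reach 2-fold either way. Eif2ak3, the gene of the sensor kinase PERK, stood at 41.5, 11.1 and 10.9 FPKM. These genes were added after their values were seen. Atf3, at 2043, 683 and 878 FPKM, belongs to the immediate early genes, which dissociation of tissue is known to induce. Of the 26 compared on that list, 2 were at least 2-fold higher in VP (Atf3 and Btg2) and 3 at least 2-fold lower, which is 7.69% and 11.5% beside 4.09% and 8.70% of all genes, and their summed level was 16008 FPKM in VP, 14172 in DLP and 17751 in AP. Under median-of-ratios scaling 2 were higher and 1 lower, where 691 and 808 of all 12018 genes were. The part of dissociation in the Atf3 difference was not tested.

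The pioneer factor Foxa1 lay within 2-fold of the other lobes, at 149 FPKM in VP, 141 in DLP and 165 in AP. Hoxb13, the homeobox gene known for its role in ventral lobe differentiation, stood at 174, 107 and 44.4 FPKM, a log2 ratio of 1.95 against AP and 0.70 against DLP. Hoxb13 passed 2-fold against the mean of AP and DLP but not against DLP.

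Of the other 20 Hox genes compared, none was 2-fold higher (beside 4.09% of all genes) and 6 were 2-fold lower (30.0%, beside 8.70%), with a median log2 ratio of -0.80. Hoxd13 stood at 7.54 FPKM in VP, 17.5 in DLP and 33.6 in AP. It was the 1 gene of those 20 past 2-fold against both lobes, near the 4.82% of all genes lower against both. Of 83 other developmental factors, 2 (2.41%) were higher by 2-fold or more and 24 (28.9%) lower, beside the same shares of all genes, and the median was -0.60. One of the higher genes was the homeobox gene Six4, at 7.38 FPKM in VP, 2.58 in DLP and 1.30 in AP. Lower genes included Osr2 (4.32, 16.6 and 56.7 FPKM), Wt1 (1.41, 4.12 and 18.3) and the inhibitor of differentiation Id1 (17.8, 90.4 and 96.6). Gata2, a zinc finger factor, stood at 11.6, 53.3 and 42.1 FPKM. Foxi1, a factor of ion-transporting epithelial cells, stood at 0.0281, 2.75 and 5.43 FPKM. Some lower factors, such as Sox17 (0.943, 6.07 and 6.99) and Sox18 (1.72, 7.97 and 13.5), are known from endothelium, whose markers were low in the same library, and the part of cell composition in them was not tested.

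**Figure D3:**
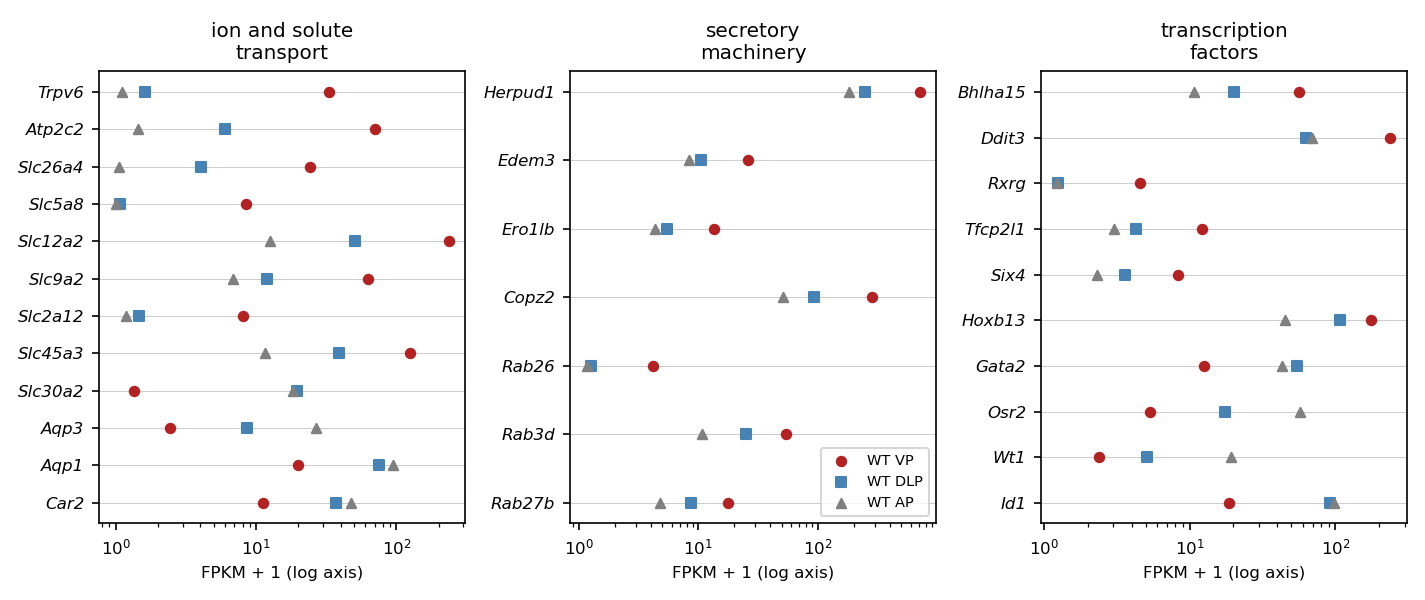
FPKM + 1 on a log axis in WT VP (circles), WT DLP (squares) and WT AP (triangles) for named genes of ion and solute transport, of the secretory machinery and of transcription; each point is 1 library. VP is the rightmost point for Trpv6 through Slc45a3, for all 7 machinery genes and for Bhlha15 through Hoxb13, and the leftmost for the remaining genes.

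Transport genes showed a small set with large differences. Trpv6, the calcium-selective entry channel of epithelia, stood at 32.3 FPKM in VP, 0.622 in DLP and 0.115 in AP (log2 ratio 4.61). Atp2c2, the pump that loads the Golgi with calcium and manganese, stood at 69.0, 4.97 and 0.441 FPKM (log2 ratio 4.24). Trpv6 had about 4364 reads in VP and 80 in DLP. Entry channel and Golgi pump were thus both highest in VP and lowest in AP.

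Anion and proton transport genes followed. Slc26a4 (pendrin), an exchanger of chloride, iodide and bicarbonate, stood at 23.4 FPKM in VP, 3.02 in DLP and 0.0540 in AP. Slc12a2 (NKCC1), which brings chloride into secreting cells across the basolateral membrane, stood at 235, 49.3 and 11.6 FPKM. Slc9a2, a sodium-proton exchanger, stood at 61.2, 11.0 and 5.87 FPKM. Slc26a3, a chloride-bicarbonate exchanger related to pendrin, had the opposite pattern at 0.0669, 2.42 and 3.41 FPKM. Of the 55 genes of ion, proton and water transport, 5 (9.09%) were higher by 2-fold or more and 11 (20%) lower, beside 4.09% and 8.70% of all genes. The water channels Aqp3 (1.45, 7.59 and 25.6 FPKM) and Aqp1 (18.7, 73.5 and 93.4) and carbonic anhydrase Car2 (10.2, 36.0 and 46.4) were all lowest in VP. Aqp3 is also a marker of basal cells and Aqp1 is known from endothelium, and markers of both cell types were low in the same library.

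Zinc and citrate are the hallmark solutes of prostate fluid. Slc30a2, a zinc exporter of secretory vesicles, stood at 0.353 FPKM in VP, 18.6 in DLP and 17.4 in AP. The metallothioneins, which bind zinc in the cytoplasm, were lower in VP as well, with Mt1 at 1508, 2637 and 4662 FPKM, Mt2 at 1031, 2210 and 3656, and Mt3 at 2.004, 5.43 and 20.3. Of the 39 zinc and metal transport genes compared, 3 (7.69%) were at least 2-fold higher (Atp2c2, Slc39a11 and Slc31a1) and 6 (15.4%) at least 2-fold lower, beside 4.09% and 8.70% of all genes, and the median log2 ratio was -0.03. Of the 18 citrate and carboxylate genes, 2 (11.1%) were higher and 3 (16.7%) lower by that measure, with a median of -0.33. Among them Ank, which exports citrate and pyrophosphate, stood at 31.7, 14.5 and 5.27 FPKM. Slc5a8, a sodium-coupled monocarboxylate transporter, stood at 7.43 and 0.0743 FPKM in VP and DLP and was listed at 0 in AP. The mitochondrial citrate carrier gene Slc25a1 (21.1, 17.7 and 12.3) did not reach 2-fold. The lactate transporter gene Slc16a1 (4.47, 12.8 and 13.9) and the aspartate-glutamate carrier Slc25a13 (0.421, 2.013 and 2.175) were lower in VP than in each other lobe.

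Of 83 carriers of sugars, amino acids and other organic solutes, 8 (9.64%) were higher by 2-fold or more and 13 (15.7%) lower, beside 4.09% and 8.70% of all genes, with a median log2 ratio of -0.27. Under median-of-ratios scaling 13 were higher and 11 lower, where 691 and 808 of all 12018 genes were. Slc45a3 (prostein), a prostate-specific sugar transporter, stood at 123 FPKM in VP, 37.9 in DLP and 10.6 in AP, and the glucose transporter gene Slc2a12 at 7.09, 0.452 and 0.176. Slc10a6, a carrier of steroid sulfates, stood at 5.81, 20.9 and 27.2 FPKM and was lower in VP. The folate transporter gene Slc46a1 stood at 5.80, 2.30 and 0.774 FPKM. Lower members included the efflux pumps Abcg2 (2.39, 10.2 and 12.5) and Abcb1a (0.762, 3.78 and 6.07), both of which are also expressed by endothelium. Each of the higher genes named here followed the order VP, DLP, AP.

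Stromal genes were low in the ventral library. Of the 169 compared in the 4 stromal lists, 3 (1.78%) were higher by 2-fold or more and 64 (37.9%) lower, beside 4.09% and 8.70% of all genes. Their median log2 ratio was -0.81, and 18 of the 169 had a ratio above 0, beside 43.4% of all genes. Endothelial genes stood lowest, with 18 of 19 at least 2-fold lower against each lobe, beside 4.82% of all genes, and a median of -2.08. Pecam1 stood at 6.25 FPKM in VP, 37.4 in DLP and 56.5 in AP, and the fenestrated vessel gene Plvap at 10.2, 53.2 and 84.8. Of 62 fibroblast and matrix genes, 21 (33.9%, beside 8.70% of all genes) were at least 2-fold lower and none higher (beside 4.09%), with a median of -0.84. Under median-of-ratios scaling 15 were lower, where 808 of all 12018 genes were. The mesenchymal surface protein Thy1 (5.45, 19.3 and 31.0 FPKM), the matrix proteoglycan Lum (6.90, 28.9 and 27.1) and the calcification inhibitor Mgp (184, 391 and 1049) were lower than in each lobe. Pdgfra, at 14.8, 26.6 and 23.5 FPKM, did not reach 2-fold, nor did Dcn, a major matrix proteoglycan gene, at 583, 1155 and 1060.

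Smooth muscle was the stromal group that differed least. Of 24 genes, 1 was at least 2-fold higher, the small heat shock protein gene Hspb6 (35.6 FPKM in VP, 14.8 in DLP and 7.61 in AP), and 2 were at least 2-fold lower, shares of 4.17% and 8.33% that are near the 4.09% and 8.70% of all genes. Under median-of-ratios scaling 1 was higher and 1 lower, where 691 and 808 of all 12018 genes were. The median log2 ratio of the 24 was -0.36, with 7 above 0 and 17 below. Their summed level was 2109 FPKM in VP, 2710 in DLP and 2511 in AP. The contractile genes Acta2 (89.4, 114 and 67.7 FPKM), Myh11 (40.6, 43.2 and 24.8) and Actg2 (13.2, 27.0 and 11.3) lay within the range of the other lobes, while the pericyte gene Rgs5 stood at 1.35, 5.16 and 9.40. Growth factors and morphogens had 2 of 64 (3.12%, near the share of all genes) higher by 2-fold or more and 23 (35.9%, beside 8.70% of all genes) lower, with a median of -0.72. Under median-of-ratios scaling 15 of them were lower, where 808 of all 12018 genes were. Wnt2 (0.769, 3.38 and 14.2 FPKM), Igfbp3 (46.2, 227 and 233), Wif1 (21.6, 63.1 and 97.4) and Dkk3 (2.26, 10.9 and 12.7) were lower, and the stem cell receptor gene Lgr5 (3.44, 0.803 and 1.21) and the receptor gene Bmpr1b (43.3, 21.6 and 3.44) were higher.

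The tissue label was checked against cell type markers, and the same markers give the composition that moved with these results. The 10 luminal markers were split, with 5 above and 5 below a log2 ratio of 0 and a median of 0.07. The keratin genes Krt8 (1292 FPKM in VP, 446 in DLP and 400 in AP) and Krt18 (1611, 526 and 549) and the tight junction gene Cldn3 (538, 119 and 75.3) were at least 2-fold higher, Epcam (274, 316 and 325) and Cdh1 (331, 348 and 498) lay within 2-fold, and Prom1 (4.48, 12.6 and 10.9) was at least 2-fold lower. The summed luminal level was 5045 FPKM in VP, 2581 in DLP and 2733 in AP, and Krt8 and Krt18 made up most of it in VP only. Basal markers summed to 922, 1943 and 2941 FPKM, with 10 of 12 (83.3%, beside 8.70% of all genes) at least 2-fold lower, among them Krt5 (33.0, 115 and 109) and Krt14 (158, 378 and 761). Against each lobe 6 of the 12 were lower by 2-fold, beside 4.82% of all genes. Under median-of-ratios scaling 7 were lower than the mean of AP and DLP, where 808 of all 12018 genes were. Hematopoietic markers summed to 233, 473 and 1002 FPKM, with 12 of 17 (70.6%, beside 8.70% of all genes) at least 2-fold lower against the mean of AP and DLP but 2 against each lobe, where 4.82% of all genes were, while the pan-leukocyte gene Ptprc (1.91, 3.18 and 4.59) did not reach 2-fold. No basal, hematopoietic or endothelial marker compared had a log2 ratio above 0. In bulk RNA, fewer cells of a type and less RNA per cell cannot be told apart.

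Markers of proximal luminal cells summed to 1464 FPKM in VP, 2749 in DLP and 4124 in AP. Of 11, 2 (18.2%) were higher by 2-fold or more and 3 (27.3%) lower, beside 4.09% and 8.70% of all genes, with a median of -0.31. Under median-of-ratios scaling 3 were higher and 2 lower, where 691 and 808 of all 12018 genes were. Krt4 (53.3, 20.3 and 10.2 FPKM) and Cldn10 (60.4, 36.2 and 8.13) were higher, Sprr1a (648, 1569 and 3249), Ly6a (47.4, 161 and 172) and Cd44 (20.9, 49.6 and 37.3) were lower, and Psca (92.1, 168 and 97.6) lay within 2-fold. The 9 seminal vesicle genes in the table summed to 0.0645 FPKM in VP, 0.186 in DLP and 0.112 in AP. The adipocyte genes Adipoq and Plin1 were listed at 0 in all 3, and Fabp4, which endothelium also expresses, stood at 27.2, 64.0 and 48.0. Glial and nerve markers summed to 7.08, 27.7 and 9.47 FPKM. Skeletal muscle markers summed to 21.0, 22.5 and 8.97 FPKM.

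The mean of Krt8 and Krt18 was 1452 FPKM in VP, 486 in DLP and 474 in AP, a log2 ratio of 1.60. These keratins do not stand for the luminal list, whose median was 0.07 with 5 of 10 markers below 0. Of the 491 higher genes, 180 had a log2 ratio above that of Krt8 and Krt18, among them Spink1, Nupr1, Trpv6, Atp2c2, Slc12a2, Bhlha15 and Herpud1. Edem3, Rab3d, Rab27b, Ank and Hoxb13 had ratios below it. How far the share of luminal cells enters each difference was not tested.

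Some genes with a like pattern lay side by side on the chromosome. Of 285 positioned genes at least 2-fold higher than in both lobes, 54 (18.9%) had a neighbouring compared gene that was also higher, where 4.72% of all compared genes had such a neighbour. The runs of 3 or more were the Krtap group on chromosome 11, the secretoglobins on chromosome 7, Krt4, Krt8 and Krt18 at chr15:101918535-102032026, Ephb6, Trpv6, Kel, Gstk1 and Tmem139 at chr6:41603834-42264555, and Trpv3, Aspa and Rap1gap2 at chr11:73267489-74610915. For the lower genes the share was 142 of 571 (24.9%), where 9.32% of all genes had a lower neighbour. Several of these runs are tandem copies, and the part of shared reads or of a shared cell type was not tested. The Krtap genes and secretoglobins passed the filter through their VP level, so their place among the 54 was fixed by the filter.

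The MYC littermate gives a separate set of the same 3 lobes, although its epithelium carries the transgene. Of the 491 genes at least 2-fold higher in WT VP, 252 (51.3%) were at least 2-fold higher in MYC VP than in the mean of MYC AP and MYC DLP, where 4.65% of all genes were, and 12 were at least 2-fold lower. Of the 1045 lower genes, 789 (75.5%) were at least 2-fold lower in the MYC animal, where 15.4% of all genes were, and 6 were at least 2-fold higher. The same sign was found for 427 of the higher genes (87.0%), beside 46.0% of all genes, and for 1002 of the lower genes (95.9%), beside 53.9%. Both animals share lobe anatomy and a dissociation protocol, so lobe and cell composition cannot be told apart here either.

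**Figure D4:**
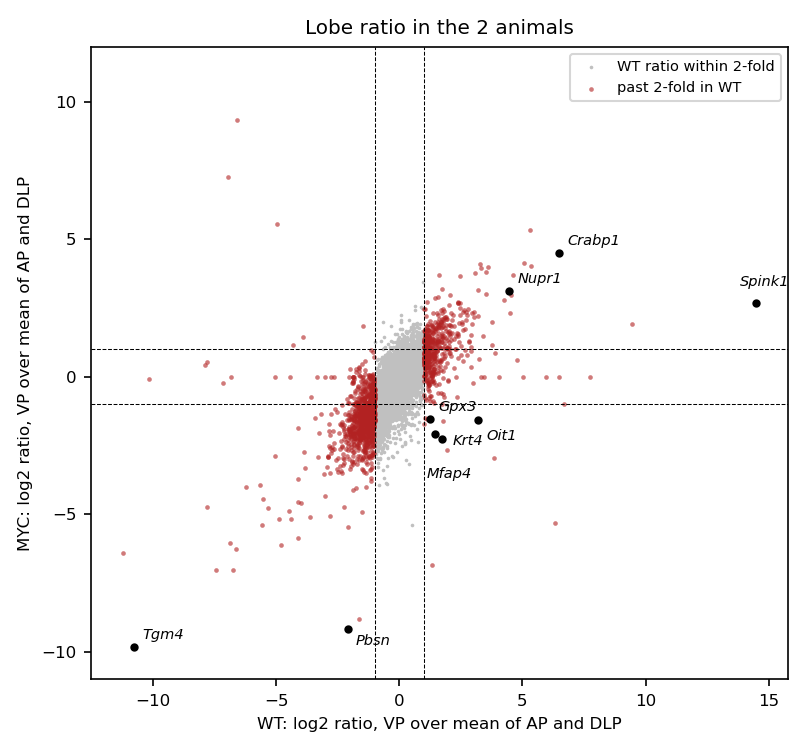
Log2 ratio of VP over the mean of AP and DLP in the WT animal (horizontal axis) and in the MYC animal (vertical axis) for the 12018 genes, 1 point per gene, with dashed lines at 2-fold and red points past 2-fold in WT. Crabp1 and Nupr1 lie in the upper right and Tgm4 in the lower left, and Gpx3, Oit1, Mfap4 and Krt4 lie in the lower right.

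The ventral genes differed in how far they kept their level in the MYC lobe. Trpv6 stood at 20.1 FPKM in MYC VP, 1.10 in MYC DLP and 0.176 in MYC AP, and Slc26a4 at 29.7, 1.42 and 0.110, with VP again far above the other lobes. Bhlha15 stood at 55.0, 14.0 and 8.68 FPKM, Krtap3-2 at 74.7, 6.44 and 0.802, and Nupr1 at 2064, 300 and 172. Crabp1 stood at 683, 58.2 and 0.201 FPKM, above its WT level. Spink1, by contrast, stood at 285 FPKM in MYC VP, 79.5 in MYC DLP and 7.04 in MYC AP, and Spink5 at 30.0, 12.4 and 2.09, so VP was still the highest lobe at a far lower level. Pigr (24.4, 40.4 and 8.51 FPKM) and Ddit3 (97.3, 84.1 and 68.4) no longer differed from the mean of the other lobes by 2-fold. With 1 animal per genotype, an effect of the transgene and a difference between mice cannot be told apart.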

How the data were processed

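RNA was measured in 6 bulk libraries, 1 per lobe (AP, DLP, VP) of 1 WT and 1 MYC mouse, assigned from the sample titles. The submitters' processing notes name bcl2fastq 2.18, STAR, Cufflinks and the build mm10, and the authors deposited 1 table of FPKM per gene, which is normalised for transcript length and mapped reads. Counts were not used here. Symbols were matched to RefSeq on GRCm38.p6, with 24344 of 24908 found, or 24826 with synonyms.

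For genes averaging 1 FPKM or more over the 3 WT libraries, the log2 ratio of VP + 1 over the mean of AP and DLP + 1 was computed in Python 3 with pandas and numpy. A difference was called at 2-fold and no test was run, since each lobe has 1 library. Lists were described by their counts of calls beside the share of all genes called, most also by their median log2 ratio or summed level. Named genes were the 15 highest and 15 lowest ratios among those averaging 10 FPKM or more past 2-fold against AP and against DLP, without small RNA genes, up to 4 in each direction per list past 2-fold against both lobes at any level above the filter, the marker genes named in the study and the defining markers of each cell type. List members named beyond this rule and genes of no list were chosen after their values were seen. The members and lists were chosen with earlier results of these data known. A few genes that the rule names are not reported here. Where a gene is in 2 lists it counts in both.

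FPKM keeps no read counts, so depth was estimated from the FPKM steps of low, single-exon GENCODE genes, with 200 bases subtracted from each length. Between 51.0% and 61.3% of those values in the WT libraries came within 0.1 of a whole read, so the depths and the read numbers are approximate. For read numbers, a gene without a matched length took the median length of the genes compared, of which 89.9% had a length. Intervals are exact (Clopper-Pearson) at 95%. The calculation was tested on simulated data. The alternatives tried were another pseudocount (0.1), other filters on low values, 3 scalings, each other lobe alone, both lobes separately, and removal of small RNA genes or, chosen after seeing the data, of genes listed at 0.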

Additional observations from a re-analysis of the deposited data

Results flagged for a closer look

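Of those averaging 10 FPKM or more, 4 genes were at least 2-fold higher in VP than in each other lobe of the WT animal and at least 2-fold lower in VP than in each other lobe of the MYC animal. The difference between the animals was not tested, since each has 1 library per lobe. Oit1 went from a log2 ratio of 3.19 in WT to -1.56 in MYC, a difference of -4.74, with 322 FPKM in the WT lobe and 8.36 in the MYC lobe. Krt4, a keratin of proximal luminal cells, went from 1.74 to -2.27, a difference of -4.01, with 53.3 and 7.09 FPKM. Mfap4, a microfibril protein gene, went from 1.44 to -2.09, a difference of -3.53, with 60.5 and 9.24 FPKM. Gpx3, the secreted glutathione peroxidase, went from 1.24 to -1.55, a difference of -2.79, with 364 and 95.4 FPKM.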

How the results depend on the processing

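Under the alternatives, 171 of the named genes were followed. Of these, 150 were past 2-fold, and all 150 kept their sign under each of the 10 alternatives that give a ratio (where the gene was retained), with 143 past 2-fold throughout. The other genes named in the text were not followed, and of these the called list members Azgp1, P4hb, Sec11c, Tram1, Srp68, Furin, Alg5, Mt1, Slc31a1, Slc39a11, Cldn10 and Bmpr1b were within 2-fold against DLP alone. Followed genes that were named for passing 2-fold against both lobes could not give another answer against AP alone or DLP alone. The counts depended on the setting. A pseudocount of 0.1 gave 56 transcription factors lower in place of 35, where all lower genes went from 1045 to 1564. A mean of at least 10 FPKM left fewer genes to compare and gave 264 higher and 425 lower in all, 17 secretion genes lower, 7 transcription factors higher and 13 lower, 8 transport genes higher and 14 lower, and 36 stromal genes lower; of the lower genes, 78.6% were also lower in the MYC animal. Against AP alone, 974 genes were higher, with 52 of secretion, 34 of transport and 6 of stroma. Against DLP alone, 321 were higher, with 16 of secretion, 7 transcription factors and 10 of transport. Past 2-fold against each lobe there were 294 higher and 579 lower, with 16 of secretion, 7 transcription factors and 10 of transport higher and 23 transcription factors lower. The medians of the glycosylation and of the zinc and metal ion lists changed from -0.03 to 0.13 under median-of-ratios scaling. That of all genes changed from -0.08 to 0.07. No paired analysis was possible because the comparison uses the lobes of 1 WT animal, which form 1 set. At 1 to 2 FPKM a gene had a median of about 65 reads in WT AP and 104 in WT VP, so low genes carry more counting error.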

Other observations

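The genes here were chosen after their values were seen, and their values are given without a test. The following 6 genes, for which no list was fixed, were at least 2-fold higher in VP than in each other WT lobe. The desaturase genes Scd1 (116 FPKM in VP, 45.5 in DLP and 20.3 in AP) and Scd2 (160, 72.2 and 30.4) were joined by the sterol regulator Insig1 (36.0, 12.7 and 7.30), the squalene synthase gene Fdft1 (19.7, 8.41 and 9.12), the acyltransferase gene Gpam (9.24, 3.56 and 2.37) and the phosphatidate phosphatase gene Lpin1 (14.8, 6.71 and 3.43). In the MYC animal the ratios of these 6 genes were all above 1 on the log2 scale, from 1.25 for Fdft1 to 2.10 for Insig1.

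Pycr1, which encodes the last enzyme of proline synthesis, stood at 57.8 FPKM in VP, 13.7 in DLP and 5.48 in AP. Gne and Cmas, which make and activate sialic acid, stood at 46.0, 15.3 and 5.16 FPKM and at 55.4, 25.8 and 14.9, where the sialyltransferases named above were lowest in VP. The gap junction genes Gjb1 (33.2, 11.8 and 3.56) and Gjb2 (21.6, 2.12 and 2.35) and Tac1 (24.6, 1.66 and 1.16), which encodes substance P, were also highest in VP. Abo, the blood group glycosyltransferase gene, stood at 232 FPKM in VP, 44.5 in DLP and 0.222 in AP.

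Hemoglobin transcripts, from red blood cells, were lowest in the ventral library, with Hba-a1 at 53.1, 486 and 340 FPKM and Hbb-b1 at 66.6, 380 and 427. Amd1, a decarboxylase gene of polyamine synthesis, stood at 15.7 FPKM in VP and at 0.0150 and 0.0275 in DLP and AP, beside its near copy Amd2 at 156, 167 and 137, and the division of reads between these copies is uncertain. Amd1 stood at 0.0177 FPKM in MYC VP.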
